A study of Homo sapiens with 3 samples.

Results

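Most of the genes examined here encode the machinery that brings proteins into mitochondria or the carriers that move metabolites across the inner membrane. All were chosen by symbol from the protein-coding genes of GENCODE on hg19. Names beginning with TOMM or TIMM gave 26 import genes. SLC25A followed by a number gave 48 carriers, so 74 of 20144 protein-coding genes in all. The class names follow the symbols, and TIMMDC1, SLC25A17 and SLC25A46 are exceptions in function or location, as described below. BMAL1 and MAX had each been immunoprecipitated from formaldehyde cross-linked chromatin of MDA-MB-231, an established triple-negative breast cancer cell line derived from a pleural effusion, and the recovered DNA was sequenced beside input chromatin. There was 1 library for each antibody and 1 input library, all from the same line, and the labels name no treatment other than the cross-linking. No value below therefore has a replicate check. The MAX list was made from 11545865 tags and holds 13650 peaks, the BMAL1 list from 13866783 tags and holds 756, both called against 29308882 input tags.

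A gene was counted as bound when the summit of a listed peak lay at most 1 kb from a transcription start site (TSS), taking every annotated transcript. For each bound gene the strongest such peak is described by its pileup, the number of 300 bp fragments stacked at the summit, and by its fold enrichment, the ratio of this pileup to the background estimated from the input. The 95% intervals given for pileups are exact Poisson intervals and cover counting error only.

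Nearly all mitochondrial proteins are made in the cytosol. Precursors are recognised by receptors of the TOM complex in the outer membrane and pass through its channel. The TIM23 complex then takes presequence proteins to the matrix or inner membrane, whereas the small TIM chaperones of the intermembrane space escort hydrophobic precursors to the TIM22 complex. SLC25 carriers are themselves the classical cargo of this TIM22 route. Once inserted, they exchange nucleotides, phosphate, carboxylates, amino acids and cofactors between cytosol and matrix. MAX is the shared partner of the MYC family and its antagonists, and BMAL1 is the partner of CLOCK. Both bind as heterodimers to the E-box CACGTG, and mitochondrial biogenesis genes are known targets of MYC.

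E-boxes near the summits of MAX peaks, and of the BMAL1 peak of SLC25A22, are printed below. Whether either factor contacts them was not measured, and most of these genes had no BMAL1 promoter peak. Each of the following lines gives 30 bases of the hg19 forward strand, with the E-box in capitals. The first 5 are all the bound import genes with an E-box in the 200 bp at the MAX summit, from the strongest peak to the weakest. SLC25A26 and SLC25A46 are strongly bound carriers, SLC25A25 carries its E-box 11 bp from the summit, and SLC25A22 is bound by BMAL1.
TIMM8A, chrX:100603685-100603714: cgcaccgaccttCACGTGtctccgcgacgg
TOMM5, chr9:37592201-37592230: cgcgccggccacCACGTGcacttcagtgcc
TIMM9, chr14:58893880-58893909: gatgggaaagaaCACGTGggagcagtaatg
TIMM44, chr19:8008898-8008927: aggtggtacaggCACGTGgatccaccgacc
TIMM8B, chr11:111957015-111957044: cttttctacgggCACGTGgcctgcaaggag
SLC25A26, chr3:66271391-66271420: gtggttctacgtCACGTGgtcccggaagtt
SLC25A46, chr5:110074649-110074678: agaggctataatCACGTGctccgaagactt
SLC25A25, chr9:130861142-130861171: ggctatggccggCACGTGtacgtcacagga
SLC25A22 (BMAL1 peak), chr11:795418-795447: acgctcggggctCACGTGcaccccagccag

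Other strong peaks had no E-box in the 200 bp at the summit. For TIMM22 the stretch centred on the MAX summit is shown, and for SLC25A16 and SLC25A30, where the window reaches a UTR, 30 bases. None contains CACGTG, so nothing is in capitals. For SLC25A36 and SLC25A10, which had peaks of both factors, the stretch at the MAX summit is given with the E-box in capitals.
TIMM22, chr17:900025-900125: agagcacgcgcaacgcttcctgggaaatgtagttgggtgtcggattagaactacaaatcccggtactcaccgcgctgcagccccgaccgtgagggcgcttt
SLC25A16, chr10:70287275-70287304: gcgtacagcaagggcggggcctgtgtcacg
SLC25A30, chr13:45992436-45992465: tggcggcagcggccccacacctcctccaac
SLC25A36, chr3:140660520-140660620: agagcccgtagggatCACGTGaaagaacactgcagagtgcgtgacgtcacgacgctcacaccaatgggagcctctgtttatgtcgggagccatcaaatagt
SLC25A10, chr17:79678869-79678969: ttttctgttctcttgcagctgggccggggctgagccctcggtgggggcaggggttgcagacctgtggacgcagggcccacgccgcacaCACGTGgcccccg

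MAX was present at the promoters of 45 of the 74 genes (60.8%), while 36.3% of all protein-coding genes (7310 of 20144) met the same rule. Import genes and carriers were bound at similar rates. Of the 26 import genes 17 were bound (65.4%, Wilson 95% interval 46.2% to 80.6%), and of the 48 carriers 28 (58.3%, interval 44.3% to 71.2%). The difference was 7.05 percentage points with an interval of -16.0 to 27.8, so at these numbers of genes the shares could not be told apart. Genes are not replicates, no test was made over them, and the intervals describe counting error only.

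**Figure D1:**
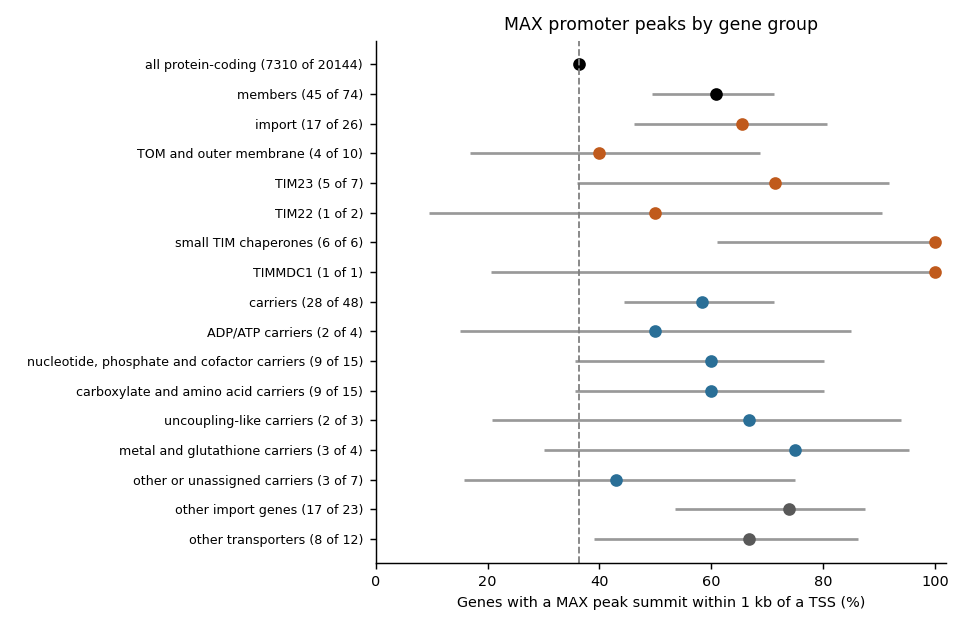
Share of genes (%) with a MAX peak summit within 1 kb of a TSS, by gene group, with the number bound and the group size beside each name. Points are shares, lines are Wilson 95% intervals, and the dashed line is the 36.3% of all protein-coding genes; the small TIM chaperones lie at 100.0% and the TOM group at 40%.

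The number of annotated start sites differed between the groups, and more start sites give a gene more chances to be counted. Import genes had a median of 3 distinct TSSs, carriers 6.5 and all protein-coding genes 5. Among genes with 1 to 4 TSSs, 11 of 16 import genes (68.8%), 5 of 15 carriers (33.3%) and 22.3% of all genes were bound. Among those with 5 to 9, the counts were 3 of 7 import genes (42.9%) and 13 of 18 carriers (72.2%), beside 42.3% of all genes. With 10 or more, they were 3 of 3 and 10 of 15 (66.7%), beside 52.8%. The order of import genes and carriers was therefore not the same in the classes. When a single canonical TSS was used for each gene, all 17 import genes stayed bound and the carriers fell to 25 of 48 (52.1%), beside 32% of all genes.

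Bound import genes had the higher median MAX enrichment. Their median fold enrichment was 14.7 (quartiles 13 and 16.2, range 5.36 to 23.4), against 12.2 for bound carriers (quartiles 9.43 and 14.2, range 6.35 to 20.3) and 10.8 for all 7310 bound genes (quartiles 8.57 and 13.9). The lower quartile of the import genes thus lay above the median of carriers and of all bound genes. Pileups followed the same order, with medians of 29, 21 and 19 fragments. The pileups of import genes (10 to 52) and carriers (12 to 64) overlapped. In the related genes given below the order was the other way, with median fold enrichments of 10.3 for import genes under other names and 15.9 for other transporters.

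**Figure D2:**
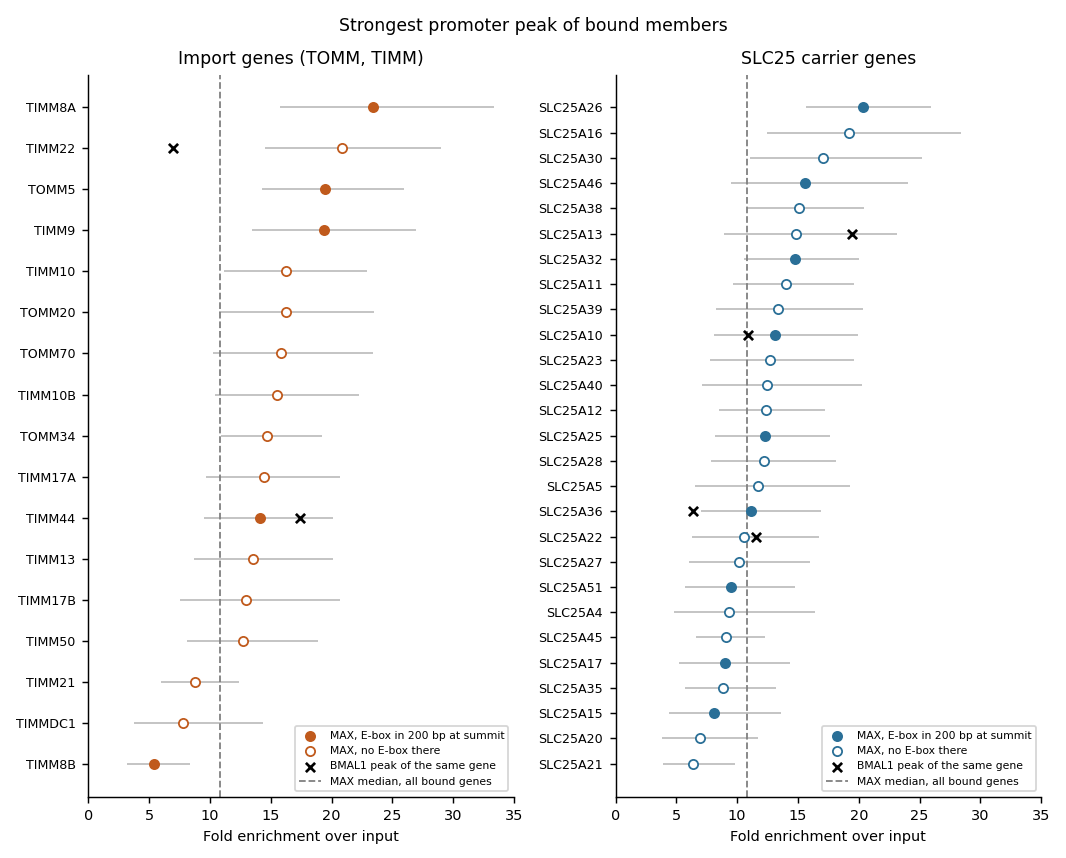
Fold enrichment over input (horizontal axis) of the strongest MAX promoter peak of the bound import genes (left) and carriers (right), with 1 carrier not drawn. Filled points have an E-box within the 200 bp at the summit and open points do not; grey lines scale the Poisson 95% interval of the pileup, crosses are BMAL1 peaks, and the dashed line is the MAX median of 10.8 over all bound genes, above which most import genes lie.

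The rank of a peak depended on the input as well as on the pileup. TIMM8A and TIMM21 had almost equal pileups, 30 and 31 fragments, but fold enrichments of 23.4 and 8.74. The background was 1.28 at TIMM8A and 3.55 at TIMM21. The value 1.28 is the genome-wide level of the background, not a local value of TIMM8A. It was the lowest among the bound members, and 7 of them had it. Among bound members the background ranged from 1.28 to 4.73, the highest at SLC25A45, where 43 fragments gave a fold enrichment of only 9.1.

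All 6 small TIM chaperone genes were bound, beside 36.3% of all protein-coding genes. At 3 of them the peak was also within 1 kb of a TSS of another protein-coding gene, as in 31.7% of all bound genes. These were TIMM9 (KIAA0586), TIMM10B (ARFIP2) and TIMM8B. TIMM8A, whose product pairs with TIMM13 and whose loss causes a deafness-dystonia syndrome, had the strongest peak of all 74 genes by fold enrichment, 23.4 from 30 fragments (interval 20.2 to 42.8). It spanned chrX:100603504-100604123, with the summit 30 bp upstream of a TSS, and exceeded 98.1% of the MAX list. TIMM9 and TIMM10 form the hexamer that escorts carrier precursors. TIMM9 had 35 fragments (24.4 to 48.7) and a fold enrichment of 19.4 at chr14:58893474-58894620, 9 bp from a TSS, and TIMM10 had 32 fragments (21.9 to 45.2) and 16.3. TIMM10B, associated with the TIM22 complex, followed with 29 fragments and 15.5, and TIMM13 with 24 fragments and 13.5. TIMM8B was the exception within the group. Its peak of 19 fragments (11.4 to 29.7) had a fold enrichment of 5.36, the lowest of all bound members and above only 2.41% of the MAX list, over a background of 3.54. The summit lay in a coding exon 415 bp downstream of a TIMM8B TSS, and the peak was also within 1 kb of a TSS of SDHD, which encodes a succinate dehydrogenase subunit.

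The TIM22 complex has its channel protein, TIMM22, and TIMM29 among these genes. TIMM22 was bound at chr17:899703-900442 with 35 fragments (24.4 to 48.7) and a fold enrichment of 20.9, the second highest of the import genes, 294 bp upstream of its single TSS. TIMM29 had no MAX summit closer than 49398 bp. Of the 7 TIM23 genes, 5 were bound. The channel subunits TIMM17A and TIMM17B had 29 and 17 fragments, with fold enrichments of 14.4 and 12.96. TIMM44, which tethers the matrix HSP70 motor, had 30 fragments and 14.1, the receptor TIMM50 24 fragments and 12.7, and TIMM21 31 fragments and 8.74 at a summit 675 bp upstream. The import genes of this complex thus had a narrower range than the small chaperones. TIMM23 and TIMM23B, near-identical copies on chromosome 10, had no listed peak within 50915 bp and 193711 bp. How reads shared by such copies were placed is not given in the sources used here, so a missing peak there is uncertain. TIMMDC1, an assembly factor of respiratory complex I, had the lowest pileup of the bound members, 10 fragments (4.8 to 18.4), and a fold enrichment of 7.79.

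The TOM group was bound at 4 of 10 genes (40%), close to the 36.3% of all genes. TOMM5, a small subunit of the complex, had 46 fragments (33.7 to 61.4) and a fold enrichment of 19.5 at chr9:37591915-37592774. The receptors TOMM20 and TOMM70, of which TOMM70 recognises carrier precursors, had 28 and 25 fragments and fold enrichments of 16.2 and 15.9. TOMM34, a cytosolic co-chaperone of precursors, had the most fragments of any import gene, 52 (38.8 to 68.2), and a fold enrichment of 14.7 over a background of 3.54. No summit lay within 1 kb of a TSS of TOMM22, the central receptor, TOMM40, the channel, TOMM6, TOMM7, TOMM20L or TOMM40L. Their nearest MAX summits were between 7353 bp (TOMM6) and 48459 bp (TOMM40L) away. Missing peaks mean that none passed the caller's threshold at this depth.

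Among the carriers of nucleotides, phosphate and cofactors, 9 of 15 were bound. SLC25A26, which brings S-adenosylmethionine into the matrix, had the largest pileup of all members, 64 fragments (49.3 to 81.7), and a fold enrichment of 20.3, above 96.4% of the MAX list. This peak, at chr3:66271014-66271782, had its summit in the 5′ UTR, 26 bp downstream of a TSS. SLC25A16, linked to coenzyme A transport, had 25 fragments (16.2 to 36.9) and 19.2 at chr10:70287055-70287539. SLC25A32, the folate and flavin carrier, had 40 fragments (28.6 to 54.5) and 14.7 at a promoter it shares with DCAF13. The ATP-Mg/phosphate carriers SLC25A23 and SLC25A25 had 12.7 and 12.3, the pyrimidine nucleotide carrier SLC25A36 11.2, and the NAD carrier SLC25A51 9.46. SLC25A17, found in peroxisomes, was the lowest with 17 fragments and 8.99. The phosphate carrier SLC25A3, SLC25A24, SLC25A33, SLC25A41, SLC25A42 and SLC25A52 had no promoter peak. SLC25A52 is a close copy of SLC25A51, so reads within the sequence they share may not be told apart. Their canonical promoter windows differ, with a GC content of 51.2% at SLC25A52 and 74.8% at SLC25A51.

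Carriers of carboxylates and amino acids were also bound at 9 of 15 genes. SLC25A38, which supplies glycine for heme synthesis, led with 41 fragments (29.4 to 55.6) and a fold enrichment of 15.1 at chr3:39424759-39426056. The aspartate/glutamate carriers SLC25A13 and SLC25A12 had 19 and 34 fragments and fold enrichments of 14.8 and 12.3. The SLC25A12 peak lay at an alternative TSS, at -114251 bp relative to the canonical one, and within 1 kb of a METAP1D start site, so its link to SLC25A12 is uncertain. The oxoglutarate carrier SLC25A11 had 14.03 and the dicarboxylate carrier SLC25A10 13.1, whereas the glutamate carrier SLC25A22 (10.6), the ornithine carrier SLC25A15 (8.11), the carnitine/acylcarnitine carrier SLC25A20 (6.97) and the oxodicarboxylate carrier SLC25A21 (6.35) were weaker. SLC25A21 was the lowest carrier, above 8.04% of the MAX list. The citrate carrier SLC25A1 had no promoter peak, with its nearest MAX summit 3649 bp away, and neither had SLC25A2, SLC25A18, SLC25A29, SLC25A44 or SLC25A48.

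The ADP/ATP carriers, abundant inner membrane proteins of many cells, had peaks of few fragments or no promoter peak. SLC25A5 had 15 fragments (8.4 to 24.7) and a fold enrichment of 11.7, and SLC25A4 12 fragments (6.2 to 21) and 9.35, both within the lower part of the carrier pileups. SLC25A31, whose product is found in testis, had no promoter peak, nor had SLC25A6. SLC25A6 lies in the pseudoautosomal region shared by X and Y, where neither list holds a peak. MAX had 235 peaks on X and the first began at position 3732878, beyond this region. How reads matching both chromosomes were placed is not given in the sources used here, so the missing peak is uncertain.

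Of the uncoupling-like carriers SLC25A30 had a fold enrichment of 17.1 and SLC25A27 10.2, and SLC25A14 was not bound. Of the metal and glutathione carriers 3 of 4 were bound. The glutathione carriers SLC25A39 and SLC25A40 had 13.3 and 12.5 and the iron carrier SLC25A28 12.2, while the other iron carrier, SLC25A37, had its nearest MAX summit 1283733 bp away. Among the 7 remaining carriers, SLC25A46, an outer membrane protein linked to mitochondrial shape, had 20 fragments (12.2 to 30.9) and 15.6 at chr5:110074507-110075003 with the summit at a TSS, SLC25A45 had 43 fragments and 9.1, and SLC25A35 24 fragments and 8.87. SLC25A35 was the single member with 2 MAX promoter peaks. The stronger had its summit in the 3′ UTR, 6800 bp downstream of the canonical TSS, and was within 1 kb of a RANGRF start site. Its link to SLC25A35 is therefore uncertain. The weaker, with 19 fragments and a fold enrichment of 6.99, had its summit 251 bp upstream of the canonical TSS. SLC25A34, SLC25A43, SLC25A47 and SLC25A53 were not bound. Over the whole family 4 of the 20 carriers without a promoter peak had a MAX summit within 10 kb of a TSS, and of the 9 such import genes 1 did. The same share over all genes without a promoter peak was not computed, so whether these counts are unusual is not known.

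All promoter peaks had been taken within 1 kb of a TSS. In 36 of 45 bound members the summit was within 300 bp, 14 of 17 import genes and 22 of 28 carriers, beside 5543 of all 7310 bound genes, with median distances of 142 and 146.5 bp and 118 bp over all bound genes. Summits were upstream of the nearest TSS in 11 import genes and downstream in 5, and upstream in 15 carriers and downstream in 12. In 1 gene of each class the summit was at the TSS. Over all 7310 bound genes 4582 summits were upstream, 2657 downstream and 71 at the TSS, so most were upstream there too. Relative to the gene model, 8 import summits lay outside the gene, 5 in a coding exon, 3 in a 5′ UTR and 1 in an intron. For carriers 10 lay outside the gene, 9 in an intron, 7 in a 5′ UTR, 1 in an exon of a noncoding transcript and 1, at SLC25A35, in a 3′ UTR. Coding exons held import summits only, although this difference rests on 5 genes and was not tested. Places in the gene model were not counted over all bound genes, so these counts have no share beside them.

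**Figure D3:**
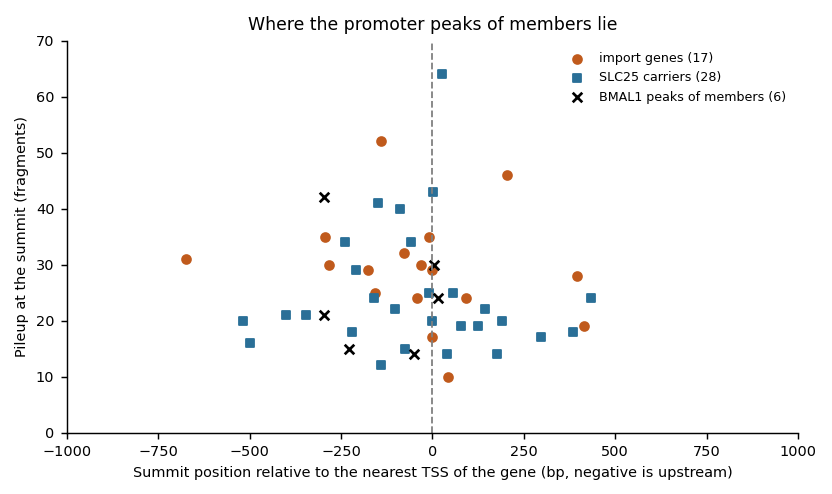
Pileup at the summit (fragments) against the position of the summit relative to the nearest TSS of the gene (bp, negative is upstream), for the strongest MAX peak of 17 import genes and 28 carriers and for 6 BMAL1 peaks of members. Most summits lie within 300 bp of the TSS, and the largest pileup, 64 at SLC25A26, is 26 bp downstream of it.

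All 17 import peaks were within 1 kb of the canonical TSS as well. Among carriers 4 were not, at SLC25A12, SLC25A22, SLC25A25 and SLC25A35. The SLC25A25 summit was intronic, 30632 bp downstream of the canonical TSS and 208 bp before an alternative one. Shared promoters were common too. In 7 of 17 bound import genes (41.2%) and 7 of 28 carriers (25%) the peak was also within 1 kb of a TSS of another protein-coding gene, as it was in 31.7% of all bound genes. Examples are TIMM9 with KIAA0586, TOMM70 with LNP1, TIMM17B with PQBP1, SLC25A11 with RNF167, SLC25A40 with DBF4 and SLC25A46 with TMEM232. At these sites the peak cannot be given to either gene from position alone.

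An E-box CACGTG within the 200 bp at the summit was found at 15 of 45 bound members (33.3%, Wilson interval 21.4% to 47.9%), beside 20.9% of all bound genes. Import genes (5 of 17, 29.4%, interval 13.3% to 53.1%) and carriers (10 of 28, 35.7%, interval 20.7% to 54.2%) had overlapping intervals. The import genes with an E-box were TIMM8A, TOMM5, TIMM9, TIMM44 and TIMM8B, whose sequences are printed above. They include 3 of the 4 highest import fold enrichments and the lowest. At TIMM8B the MAX summit lay inside the E-box itself (111957027 to 111957032), although this was the weakest peak. E-boxes were unevenly spread over the carrier groups. The nucleotide, phosphate and cofactor carriers held 7 of the 10, at 7 of their 9 bound genes (77.8%, interval 45.3% to 93.7%). The carboxylate and amino acid carriers had 2 of 9 (22.2%, interval 6.32% to 54.7%) and the ADP/ATP, uncoupling-like, and metal and glutathione carriers had 0 of 2, 0 of 2 and 0 of 3. These groups are small and no test was made between them.

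Peaks with an E-box had median fold enrichments of 19.4 in 5 import genes and 11.7 in 10 carriers. Those without it had 14.6 in 12 import genes and 12.3 in 18 carriers. The order was thus opposite in the classes, but the 5 import values ranged from 5.36 to 23.4 and the carrier medians lay close together. These numbers are small and the difference was not tested. Over all bound genes the medians were 13.4 with and 10.2 without. The variant CACGCG (or CGCGTG on the opposite strand) occurred at the summits of 6 of 17 import genes (35.3%) and 8 of 28 carriers (28.6%), beside 19.7% of all bound genes. With CACGTT or AACGTG counted in addition to CACGTG, the number of members with an element remained 15.

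BMAL1 was present at the promoters of 6 of the 74 genes (8.11%, interval 3.77% to 16.6%), 2 import genes and 4 carriers, while 1.85% of protein-coding genes (372 of 20144) had a BMAL1 promoter peak. All 6 also had a MAX promoter peak, as did 355 of the 372 BMAL1-bound genes (95.4%). The strongest by fold enrichment was at SLC25A13, the aspartate/glutamate carrier of liver known as citrin. Its BMAL1 peak (chr7:95951102-95951774) had 30 fragments (20.2 to 42.8) and a fold enrichment of 19.5, above 87.4% of the BMAL1 list, with the summit 5 bp from a TSS. The MAX peak there had 19 fragments and 14.8, and the summits were 159 bp apart. Neither summit window held an E-box, although each peak held CACGTG farther out, the nearest 103 bp from the MAX summit and 116 bp from that of BMAL1.

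TIMM44 had the largest BMAL1 pileup, 42 fragments (30.3 to 56.8), with a fold enrichment of 17.4 at chr19:8008596-8009111. The MAX summit (30 fragments) was 16 bp away, and the distance to the printed E-box was 60 bp for BMAL1 and 76 bp for MAX. At SLC25A10, the dicarboxylate carrier, both factors had 21 fragments (13 to 32.1) with summits 50 bp apart, and the E-box was 7 bp from the BMAL1 summit. Fold enrichments were 10.9 for BMAL1 and 13.1 for MAX. The weakest BMAL1 peaks were at SLC25A36 (15 fragments, 8.4 to 24.7, fold enrichment 6.34) and TIMM22 (14 fragments, 7.65 to 23.5, fold enrichment 7). At TIMM22 the BMAL1 summit was 50 bp upstream of the start site, with 244 bp between the factors' summits, and the BMAL1 peak held no CACGTG but had the related element CACGTT (or AACGTG on the opposite strand) in the 200 bp at its summit.

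SLC25A22, the glutamate carrier, differed from the other 5 because its peaks did not overlap. The BMAL1 peak (chr11:795238-795621, 24 fragments, fold enrichment 11.6) lay 15 bp from an alternative TSS, with an E-box 20 bp from the summit. The MAX peak (chr11:796333-796701, 18 fragments, fold enrichment 10.6) lay 1027 bp from it at another alternative TSS and had no E-box. Both were within the gene, 2826 bp and 1799 bp downstream of the canonical TSS, and this gene has 29 annotated TSSs. With canonical start sites 5 members had a BMAL1 peak. Over the 6 members, 4 BMAL1 summits (66.7%) had CACGTG in the surrounding 200 bp, beside 293 of the 372 BMAL1-bound genes (78.8%).

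**Figure D4:**
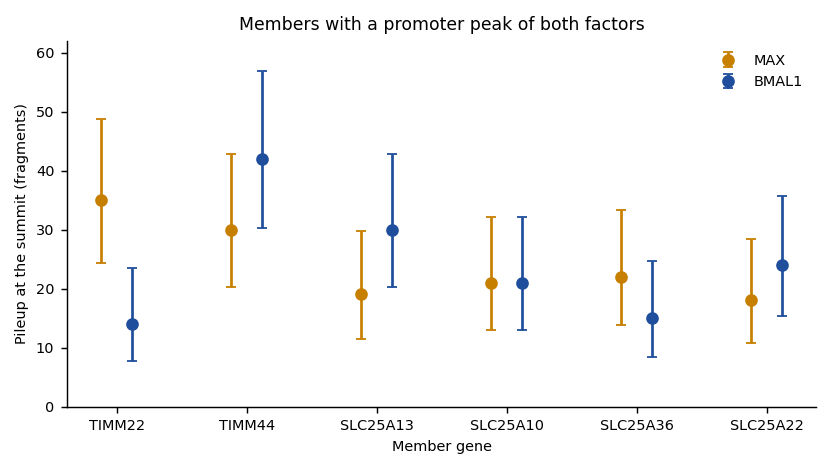
Pileup at the summit (fragments) of the strongest MAX and BMAL1 promoter peaks of the 6 members bound by both, with exact Poisson 95% intervals. The libraries differ in depth, so levels are shown side by side; the intervals of the factors do not overlap at TIMM22 alone, where MAX had 35 fragments and BMAL1 14.

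Sequence elements of the promoters, which the choice of genes did not use, had unlike shares in import genes and carriers, with no test made between them. From 250 bp before to 50 bp after the canonical TSS, the ETS element (CCGGAAG, or CTTCCGG on the opposite strand) occurred in 13 of 26 import genes (50%), 12 of 48 carriers (25%) and 14% of all protein-coding genes. The element of NRF1, a regulator of nuclear genes for mitochondria, was searched as CGCNTGCG on both strands and occurred in 9 import genes (34.6%), 8 carriers (16.7%) and 14.2% of all genes. For CACGTG the order was the other way, with 3 import genes (11.5%), 9 carriers (18.8%) and 8.75% of all genes. CACGCG was found in 23.1%, 27.1% and 15.2%, the YY1 element AAGATGGC in 7.69%, 4.17% and 4.03%, and the ERR element TCAAGGTCA in 1 import gene, 0 carriers and 0.199%. Every element was searched on both strands. The median GC content of this window was 63.8% for import genes, 66.9% for carriers and 63.5% for all genes.

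**Figure D5:**
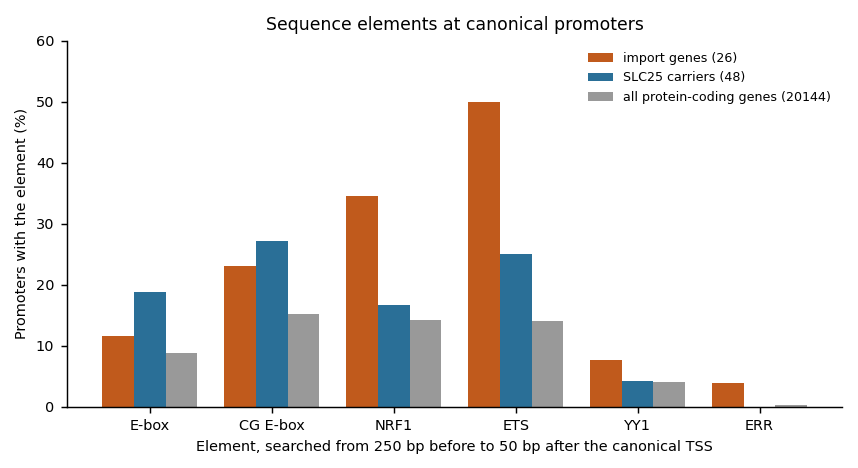
Share of canonical promoters (%) that hold each sequence element in 26 import genes, 48 carriers and all 20144 protein-coding genes. The ETS element is at 50% in import genes and 25% in carriers, while the E-box is at 11.5% and 18.8%.

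Of the 12 members with CACGTG in this promoter window, 10 were bound by MAX (83.3%), among them 3 of 3 import genes (TIMM8A, TIMM10 and TOMM20) and 7 of 9 carriers. Of the 62 without it, 35 were bound (56.5%). Over all protein-coding genes the shares were 53.6% with and 34.6% without. The exceptions were SLC25A31, whose promoter held 4 copies, and SLC25A33. Members with an ETS element were bound at 16 of 25 (64.0%) and those without at 29 of 49 (59.2%), whereas over all genes the shares were 57.7% and 32.8%. With the NRF1 element 9 of 17 members were bound (52.9%), and without it 36 of 57 (63.2%), beside 54.2% and 33.3% of all genes.

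Genes of the same pathways under other names are given beside them. Over all protein-coding genes 36.3% had a MAX promoter peak and 1.85% a BMAL1 promoter peak. Of 23 further import genes, 17 had a MAX promoter peak (73.9%, interval 53.5% to 87.5%), with a median fold enrichment of 10.3, and 0 had a BMAL1 promoter peak. HSPD1 and HSPE1, the matrix chaperonins, share the strongest of these peaks (fold enrichment 18.6, 29 fragments), followed by SAMM50 of the outer membrane sorting machinery (16.4) and CHCHD4, the receptor for disulphide relay import (15.1). Those without a peak were AGK, DNAJC19, GFER, MTX2, PAM16 and PMPCB. Of 12 other transporters, 8 were bound by MAX (66.7%, median 15.9) and 3 by BMAL1. At the sideroflexin SFXN2 the MAX fold enrichment was 27.2 and that of BMAL1 13.2, at UCP2 they were 18.5 and 11.7, and at SFXN5 7.25 and 6.32. MTCH2, an outer membrane insertase of the SLC25 family (20.1), and MPC1, a subunit of the pyruvate carrier (19.7), had MAX peaks alone.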

How the data were processed

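Per the labels and the study's methods, reads were aligned on hg19 with BWA 0.6.2, and peaks were called per antibody by MACS2 2.0.9 against the shared input. The deposited lists give the pileup signal at each summit, not scaled per tag, its fold enrichment (a ratio to the input background), and -log10 p-values and q-values written by the authors' caller. Every peak in the lists was kept; the p-value threshold is 1e-05 in the headers but 1e-08 in the methods. At most 1 tag per position was kept for MAX and 2 for BMAL1, which limits high pileups.

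TSSs of all transcripts of protein-coding genes were taken from GENCODE release 44 on GRCh37 (hg19). Pseudoautosomal copies on Y were counted once. E-boxes were searched in 200 bp of hg19 at summits. The rule for named genes took members with a BMAL1 peak, the 10 strongest of each class, the strongest and weakest of each role group, and import genes and ADP/ATP carriers without a promoter peak. Other members named were added after their values were seen. Sequences at summits were shortened to 30 bases where a UTR lay in the window. The E-boxes printed are those of all 5 import genes with one and of some carriers, a selection made after the values were seen. The values of 1 carrier are not reported here, although it is in the counts. The members and lists were chosen with earlier results of these data known. The peak-to-gene rule and the motif search were tested on simulated data. Peaks were joined to genes in pandas 2.3.3 and numpy 2.4.6, sequence was read with pysam 0.24.0, intervals came from scipy 1.17.1 and figures from matplotlib 3.10.9 (Python 3.11.15).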

Additional observations from a re-analysis of the deposited data

How the results depend on the processing

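The counts of MAX-bound import genes, bound carriers and BMAL1-bound members were recomputed, with the difference in shares, the median fold enrichments and the E-box shares. Of 69 combinations of result and alternative, 66 stayed within 1.5 times the count or within the interval of the reported value. These limits were wide and the alternatives reuse the same peaks, so that number says little about stability. For the difference the interval was -16.0 to 27.8. For the medians the Poisson interval of a single pileup of median size was scaled to fold enrichment. This gave 9.82 to 21.1 for import genes and 7.57 to 18.7 for carriers. It covers the counting error of a single peak, not the uncertainty of a median over the genes. The import share stayed above that of the carriers under all 8 alternatives, by 0.251 to 13.3 percentage points. The smallest difference arose when genes with only shared promoter peaks were left out, which by construction also lowered the bound import genes from 17 to 10, and the bound carriers to 22. With the whole peak searched, 58.8% of import peaks and 50.0% of carrier peaks held CACGTG. With 100 bp at the summit the shares were 17.6% and 17.9%. The shares over all bound genes were not computed for these windows. At the p-value threshold of the methods, 1e-08, 16 import genes and 28 carriers remained counted for MAX, beside 34.0% of all genes. TIMMDC1 was the import gene that did not reach it. At a p-value threshold of 1e-12, 15 import genes, 23 carriers and 4 BMAL1-bound members remained counted, with MAX at 23.5% of all genes.

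With 1 library for each antibody, leaving out a replicate was not possible and the spread between libraries is unknown. The lowest pileup of a bound member, 10 fragments at TIMMDC1, had an interval of 4.8 to 18.4. Missing peaks at TIMM23, TIMM23B and SLC25A6 are uncertain because of near-identical copies. For SLC25A52 this holds only within the sequence it shares with SLC25A51, since the promoter windows of these genes differ.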
